A study of Arabidopsis thaliana with 22 samples.

Results

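The mRNAs described here are those whose ribosome loading was higher in the *pab2 pab8* double mutant of *Arabidopsis* than in the wild-type (WT), after the best known seed and plastid genes had been set aside. Translation state (TL) is the log2 signal of an mRNA in polysomes (PL) minus its log2 signal in the non-polysomal fraction (NP) of the same genotype and replicate, so that a higher TL means a larger share of the mRNA on polysomes. A probe set was a member when its TL in the mutant minus that in the WT averaged at least 0.585 over 4 replicates, which is 1.5-fold, and was above 0 in each of the 4. Of 22746 probe sets 222 passed, or 0.976% of all, against 115 or 0.506% that passed the same thresholds in the other direction. From the 222, 18 probe sets were removed, for *PAB2*, *PAB4*, *DELTA-VPE*, *TSPO*, *LTI65*, seed storage proteins, oleosins, late embryogenesis abundant (LEA) proteins and plastid genes, which left 204 members. The balance of the directions depended on scaling: when arrays were first centred on their medians, 95 members remained and 261 probe sets passed in the other direction. Since the members were chosen by their TL change, their TL, PL and NP values are descriptions and carry no test. The total RNA arrays took no part in the choice.

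Poly(A) binding proteins coat the poly(A) tail of mRNAs and contact the initiation factors at the cap, and so aid the recruitment of ribosomes. An mRNA with several ribosomes sediments with the polysomes in a sucrose gradient, while an mRNA with none stays in the lighter fractions, and the balance between them is a usual measure of translation initiation. *Arabidopsis* has a family of such proteins, of which PAB2, PAB4 and PAB8 are the widely expressed class in vegetative tissue.

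The mutant carries a T-DNA allele of *PAB2* and one of *PAB8* in the Col-0 ecotype, and the WT was Col-0. Seedlings of both genotypes were grown side by side for 10 to 12 days at 22°C on medium with 1% sucrose, in continuous light, and only aerial parts were taken. Each genotype gave 4 PL and 4 NP samples from 4 replicates grown at different times, and 3 total RNA samples, for 22 ATH1 arrays in all. The genotype effect rests on 1 double mutant line.

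In total RNA, *PAB2* was lower in the mutant by a log2 change of -5.74 (FDR = 6.5e-08, limma) and *PAB8* by -3.73 (FDR = 0.000136), which fits the sample labels. The array medians lay between 4.68 and 4.99 on the fraction arrays and between 6.12 and 6.23 on the total RNA arrays, the lowest being the NP array of mutant replicate 2 (the other mutant NP arrays had 4.95 to 4.96). On total RNA arrays the mean log2 signal of 2 measured shoot markers was 13.11 to 13.29 in WT and 13.35 to 13.37 in the mutant, and that of 2 root hair markers 4.40 to 4.64 and 4.09 to 4.30. No pollen marker was measured under its name. For bulk RNA of this kind, fewer cells of a type and less RNA per cell cannot be told apart.

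The gains of the members were small, and most lay just above the threshold. Their mean TL change had a median of 0.66, where the median of all probe sets was 0.05, and ranged from 0.59 to 1.31. A mean change under 0.7 was found in 129 members and a change of 1 or more in 4. The members nearest to the threshold on the inside were *AT3G02330* and *AT3G03890* at 0.588 each and the probe set 249286_at at 0.5875. Just outside it were *AT2G18970* at 0.5842, the probe set 251830_at at 0.5815 and *AT2G07728* at 0.5813.

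In the WT the TL of the members was mostly below 0. The PL and NP arrays had similar medians after normalization, so a TL of 0 does not stand for equal amounts in PL and NP. The median TL of the members was -0.59 in WT and 0.07 in the mutant, against -0.10 and -0.04 for all probe sets. TL was below 0 in WT in 181 members (88.7%, against 58.0% of all probe sets). Of the members, 97 were below 0 in WT and above 0 in the mutant, 84 were below 0 in both genotypes and 23 above 0 in both. In 108 members (52.9%) each of the 4 mutant values lay above each of the 4 WT values, where 2.64% of all probe sets did so. The rule favours a low TL in WT and a high one in the mutant. The medians and counts here thus follow in part from it and are given as descriptions.

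The gain was not the same in the 4 replicates. The median change of the members was 0.93 in replicate 1, 0.78 in replicate 2, 0.48 in replicate 3 and 0.43 in replicate 4. Over all probe sets it was -0.03, 0.23, 0.00 and -0.02, so that in replicate 2 the bulk of the mRNAs was also shifted upwards. That is the replicate with the low NP array, and the part of this array in the members' values was not tested. Replicate 1 held the largest of the 4 changes in 104 members (51.0%, against 22.3% of all probe sets). Replicate 2 held it in 63 (30.9%, against 44.1% of all probe sets). The SD of the 4 changes was 0.42 at the median member and 0.34 at the median probe set.

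**Figure D1:**
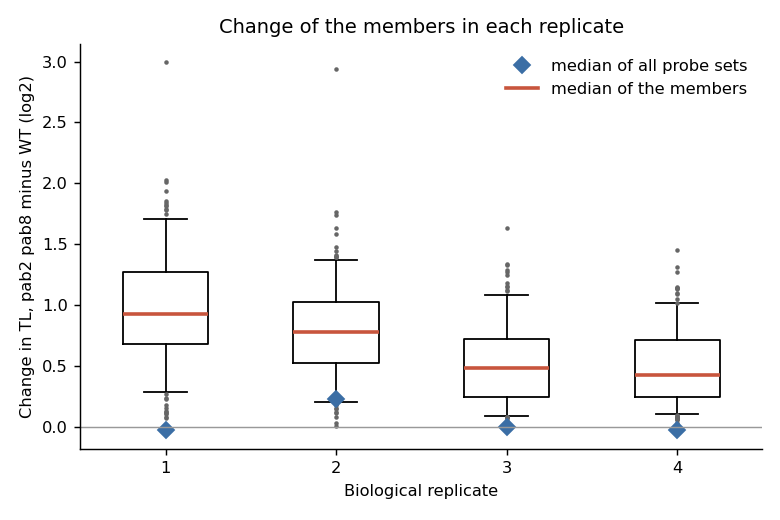
Change in TL (log2, *pab2 pab8* minus WT) of the 204 members in each biological replicate. Boxes span the quartiles, whiskers the 5th to 95th percentile, and diamonds mark the median of all probe sets. The members' median is 0.93, 0.78, 0.48 and 0.43 in replicates 1 to 4, and only in replicate 2 does the median of all probe sets, 0.23, lie away from 0.

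To see the change in a replicate that the choice had not used, members were chosen again on 3 replicates and read in the replicate left out. Without replicate 1 the rule chose 253 probe sets, whose median change in replicate 1 was 0.20 (all probe sets -0.03), with 60.5% above 0 (all 47.5%). Without replicate 2 it chose 212, with a median of 0.38 in replicate 2 (all 0.23) and 85.4% above 0 (all 72.0%). Without replicate 3 it chose 631, with a median of 0.03 (all 0.00) and 52.3% above 0 (all 49.7%), and without replicate 4 it chose 529, with 0.11 (all -0.02) and 61.4% (all 47.1%). In each case the median in the replicate left out was well below the median in the 3 replicates used for the choice, which was 0.66 to 0.69. Replicate 3 came closest to the median of all probe sets when it was left out.

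*MTP11*, a manganese transporter of the metal tolerance protein family, had the largest TL change among members with a gene name. Its TL in WT was -1.26, -0.07, -0.39 and -0.64 in replicates 1 to 4, and 0.68, 0.83, 0.36 and 0.51 in the mutant. All 4 mutant values were above 0 and all 4 WT values below it, with no overlap, and the mean change was 1.18 ± 0.53 (SD, n = 4). Its PL signal was 3.84, 3.93, 4.03 and 3.40 in WT and 5.25, 5.30, 5.66 and 4.98 in the mutant, so the groups lay apart in polysomes too. The NP signal was 5.10, 4.00, 4.42 and 4.05 in WT and 4.57, 4.47, 5.30 and 4.47 in the mutant, which overlap. The mean WT signal of *MTP11* over PL and NP was 4.10, near the lower end of the range of the fraction arrays. In total RNA *MTP11* was not higher in the mutant but at 9.41, 9.49 and 9.65 against 9.82, 9.72 and 9.78 in WT, a log2 change of -0.25 ± 0.10 (SE) that missed the threshold (FDR = 0.169, limma). None of the other 7 measured genes of the family passed the TL thresholds, which at a share of 0.897% over all probe sets says little. Over all 8 the median TL change was -0.09, with 2 above 0 (58.9% of all probe sets were). The family was listed with earlier results of these data known.

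**Figure D2:**
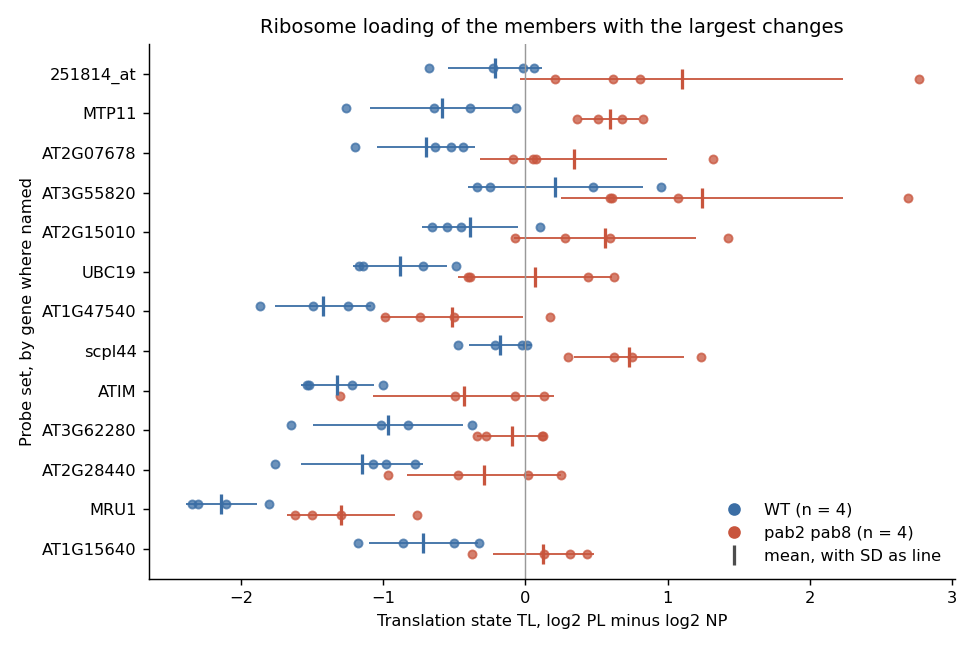
TL (log2 PL minus log2 NP) in the 4 WT and 4 *pab2 pab8* samples for the unnamed probe set with the largest change and the 12 named members with the largest changes, with means (ticks) and SD (lines). WT and mutant values lie apart in *MTP11*, *scpl44* and *MRU1*, and overlap in *AT3G55820* and *ATIM*.

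The single largest change belonged to a probe set without a gene name here, 251814_at. Its change was 2.99, 0.15, 1.29 and 0.82 in replicates 1 to 4, a mean of 1.31 ± 1.21 (SD, n = 4), so that replicate 1 alone accounts for much of the mean. Its total RNA signal was 13.60, 13.64 and 13.63 in WT and 13.54, 13.57 and 13.59 in the mutant (log2 change -0.06, FDR = 0.709, limma), among the brightest on the array. *AT3G55820* had a mean change of 1.03 ± 1.33 with 2.94 in replicate 2 and 0.93 in replicate 3 but 0.12 and 0.14 in replicates 1 and 4. For *AT2G07678* the change was 1.27, 1.76, 0.58 and 0.55, and for *AT2G15010* it was 0.93, 1.32, 1.15 and 0.39. These leading members were thus carried by different replicates.

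*UBC19* encodes a ubiquitin-conjugating (E2) enzyme of the cell cycle. Its TL was -1.17, -0.49, -0.72 and -1.14 in WT and 0.62, 0.44, -0.41 and -0.39 in the mutant, the groups not overlapping, with a mean change of 0.95 ± 0.62. *ATIM*, the relative of the animal replication fork and clock protein TIMELESS, had WT values of -1.54, -1.22, -1.00 and -1.52 and mutant values of -1.30, 0.13, -0.49 and -0.07. In *ATIM* the mutant value of replicate 1 lay within the WT range, and the mean change was 0.89 ± 0.61. Its PL signal was alike in both genotypes (mean log2 change -0.01), whereas the NP signal had a mean change of -0.89. *UBC19* was of the same kind, with 0.20 in PL and -0.75 in NP, and its total RNA differed by only 0.09 (FDR = 0.765, limma).

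*MRU1*, named for its response to the methionine over-accumulating mutant *mto1*, had a low TL in both genotypes. Its TL was -2.30, -2.10, -2.35 and -1.80 in WT and -0.76, -1.30, -1.62 and -1.50 in the mutant. The groups did not overlap, yet TL stayed below 0 in the mutant, and the signal was lower in both fractions (mean log2 change -0.61 in PL and -1.45 in NP). Of the remaining named members with large changes, *AT1G47540* averaged 0.91, *AT3G62280* 0.87, *AT2G28440* 0.85 and *AT1G15640* 0.84. In *AT3G62280* the change in replicate 3 was 0.04, and in *AT2G28440* it was 2.01 in replicate 1 and 0.11 in replicate 3.

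The gains lay mostly in a lower signal of the non-polysomal fraction and less in a higher signal of polysomes. The median log2 change of the members was 0.15 in PL and -0.52 in NP, while all probe sets had 0.00 and -0.05. In 157 members (77.0%, against 24.3% of all probe sets) PL was higher and NP lower in the mutant, in 20 both were higher (9.8%, all probe sets 26.4%) and in 27 both were lower (13.2%, all probe sets 34.9%). NP was lower in each of the 4 replicates in 128 members (62.7%, all probe sets 13.0%), and PL higher in each of the 4 in 70 (34.3%, all probe sets 12.2%). The rule favours a lower NP and a higher PL in the mutant. The excess of these shares over all probe sets thus follows in part from it and is given as a description. The 18 probe sets set aside had another pattern, with a median change of 2.01 in PL and 0.87 in NP. Replicate 1 had the largest NP shift of the members, with a median of -0.73, against -0.52 in replicate 2, -0.29 in replicate 3 and -0.35 in replicate 4. Over all probe sets the median NP change was 0.032, -0.217, 0.002 and -0.005 in replicates 1 to 4. The NP shift in replicate 2, the one with the low NP array, was thus in part shared by all probe sets.

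**Figure D3:**
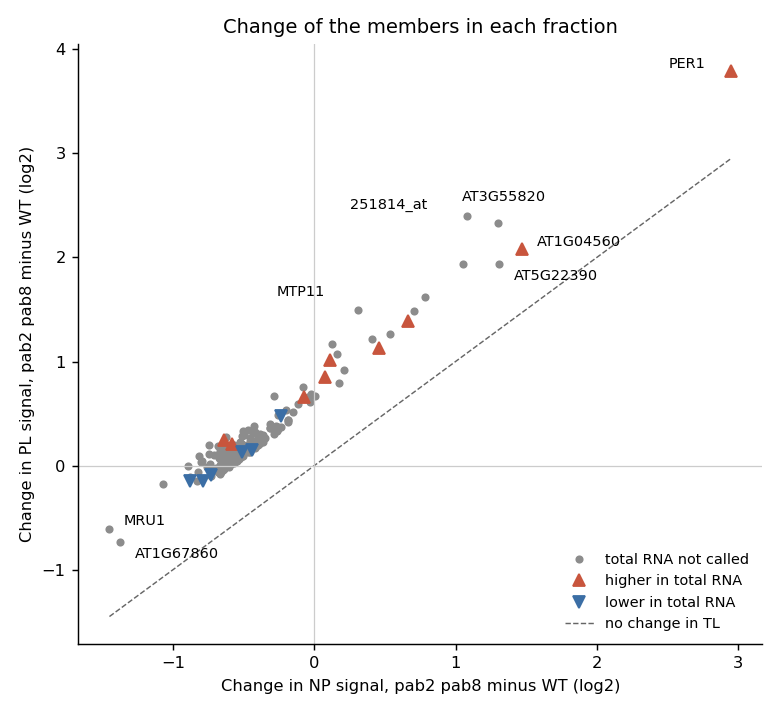
Mean log2 change of each member in the NP fraction (x) and in the PL fraction (y), *pab2 pab8* minus WT. The rule places every member above the dashed line. Most lie at a lower NP signal and near 0 in PL, while *PER1*, *AT1G04560*, *AT3G55820* and 251814_at are higher in both fractions. Triangles mark members that passed the total RNA test.

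The 20 members that were higher in both fractions include those with the largest PL changes. Their genes include *PER1*, *AT1G04560*, *MLS*, *LURP1*, *scpl44* and *scpl35*. Of the 20, 6 were higher in total RNA in the mutant as well (FDR below 0.05, limma), where 2.44% of all probe sets were. In others the signal was higher in both fractions and not in total RNA. Of 9 members whose PL and NP changes averaged 1 or more, 5 had a total RNA change within 0.3 of 0 (84.4% of all probe sets did). Those 5, picked after their values were seen, are 251814_at, *AT3G55820*, *AT2G46600*, *AT5G22390* and a probe set shared by several genes, 264979_s_at. In *AT3G55820* the PL signal was 4.76, 4.53, 4.08 and 3.78 in WT and 6.45, 8.04, 6.40 and 5.59 in the mutant, and the NP signal 3.81, 4.78, 4.42 and 3.31 in WT and 5.38, 5.35, 5.81 and 4.98 in the mutant. Neither fraction overlapped between genotypes, and yet total RNA was 4.65, 4.86 and 4.69 in WT and 4.34, 4.67 and 4.72 in the mutant. For *AT5G22390* the mean log2 change was 1.94 in PL, 1.31 in NP and 0.26 in total RNA (FDR = 0.256, limma).

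*scpl35* and *scpl44* encode serine carboxypeptidase-like proteins, a family of hydrolases and acyltransferases of secondary metabolism and protein turnover. In *scpl35* the PL signal was 6.18, 6.30, 6.30 and 6.08 in WT and 7.61, 7.20, 7.13 and 7.79 in the mutant, which lie apart. Its TL change averaged 0.81 ± 0.39 (SD, n = 4), the TL values of the genotypes overlapped, and total RNA differed by 0.07 (FDR = 0.767, limma). In *scpl44* TL was -0.03, 0.01, -0.21 and -0.47 in WT and 1.24, 0.75, 0.30 and 0.63 in the mutant. Here total RNA was higher too, at 3.80, 4.13 and 3.92 in WT and 4.80, 5.21 and 5.01 in the mutant, which is 2.08-fold (log2 1.05 ± 0.13 SE, FDR = 0.00478, limma). Of 30 measured probe sets of the family these 2 were members (6.67%, where 0.897% of all probe sets were). A TL change above 0 was found in 24 of the 30 (58.9% of all probe sets had one), and their median change was 0.13 over all 30. The family was listed with earlier results of these data known, so these shares are descriptions. In total RNA 4 of the 30 passed as higher and 0 as lower, where 2.44% and 1.45% of all probe sets did.

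Over all members, total RNA differed little between the genotypes. The median log2 change was -0.05, where all probe sets had -0.03 and the probe sets set aside 1.48. The change was within 0.3 of 0 in 156 members (76.5%, all probe sets 84.4%). With limma at an FDR below 0.05, 9 members were higher (4.41%, where 2.44% of all probe sets were called) and 6 lower (2.94%, where 1.45% were called). When arrays were first centred on their medians, 8 were higher and 9 lower, where 2.14% and 2.69% of all probe sets were called. Without replicates 1, 2 and 3 the higher members numbered 6, 3 and 6, where 0.435%, 0.211% and 1.36% of all probe sets were called, and the lower members 0 each time, where 0.127%, 0.0879% and 0.299% were called. With a 2-fold criterion 6 members were higher (2.94%, where 0.435% were called) and 0 lower (0.101%). At an unadjusted p below 0.05, 60 members differed in either direction (29.4%, all probe sets 21.0%). Across the members the TL change and the total RNA change had a Pearson r of 0.16 and a Spearman rho of 0.18 (204 probe sets, which share the same arrays).

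Some of the members that were higher in total RNA are seed genes, so the removal of listed seed genes did not leave a set free of them. *PER1*, a peroxiredoxin of the seed, had a total RNA signal of 4.66, 4.37 and 4.54 in WT and 7.41, 8.06 and 8.49 in the mutant. The groups lay far apart, and the mutant was 11-fold higher (log2 3.46 ± 0.23 SE, FDR = 0.000262, limma). Its TL was 0.30 ± 0.25 in WT and 1.13 ± 0.42 in the mutant (SD, n = 4 each). *AT1G04560*, which encodes an AWPM-19-like membrane protein, had 4.06, 4.01 and 3.76 in WT and 5.54, 6.20 and 6.37 in the mutant. It was 4.27-fold higher (log2 2.09 ± 0.20 SE, FDR = 0.00116, limma), and its FDR was 0.0519 without replicate 2 (0.000612 to 0.0519 over the alternatives tried). The mean signal of 4 measured seed markers, *PER1* among them, was 4.53 to 4.87 in WT and 7.38 to 8.56 in the mutant, and the part of this shift in the other members' values was not tested.

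*MLS* encodes malate synthase, an enzyme of the glyoxylate cycle by which seedlings use stored lipid. Its total RNA signal was 4.49, 4.75 and 4.41 in WT and 5.48, 6.14 and 6.36 in the mutant, which is 2.72-fold (FDR = 0.0081, limma, and 0.0958 without replicate 2, with 0.00505 to 0.0958 over the alternatives tried). Its TL was -0.19, 0.01, -0.08 and -0.06 in WT and 0.12, 0.95, 0.69 and 0.60 in the mutant, so that a nearly constant WT value was exceeded in each mutant sample. Of the remaining members, *ATOEP16-2*, the seed form of an outer plastid envelope channel, had a TL change of 0.61 and a total RNA change of 0.33 that did not pass (FDR = 0.325, limma).

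Beyond the seed genes, *UF3GT*, a glycosyltransferase of anthocyanin synthesis, rose 2.75-fold in total RNA. Its signal was 5.76, 5.92 and 5.70 in WT and 7.39, 7.44 and 6.94 in the mutant (log2 1.46 ± 0.14 SE, FDR = 0.00117, limma). Its TL change was 0.76, 0.03, 0.99 and 1.14 in replicates 1 to 4, nearly absent in replicate 2. *LURP1*, a gene induced late in the response to downy mildew, had a total RNA signal of 7.85, 7.25 and 8.75 in WT and 9.75, 9.30 and 9.47 in the mutant. The WT samples spread widely, the groups did not overlap, and the 2.94-fold change had an FDR of 0.0306 in limma, 0.188 without replicate 1 and 0.122 without replicate 2 (0.0117 to 0.188 over the alternatives tried). *AT5G01300* rose 1.58-fold (FDR = 0.0301, limma, and 0.157 and 0.168 without replicates 2 and 3, with 0.0304 to 0.168 over the alternatives tried).

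**Figure D4:**
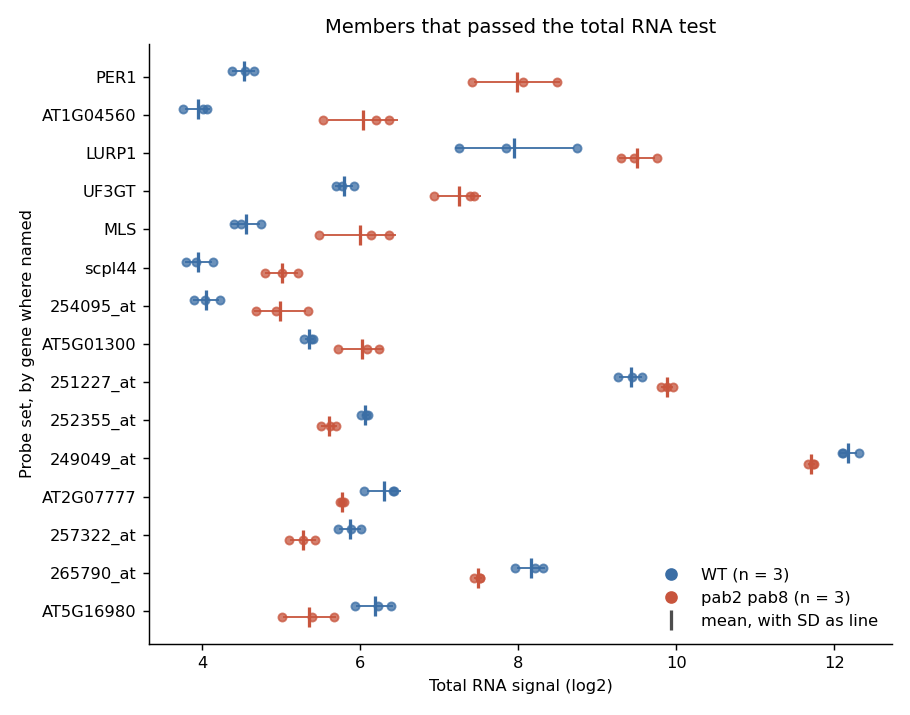
Total RNA signal (log2) in the 3 WT and 3 *pab2 pab8* samples for the 15 members with an FDR below 0.05 in limma, with means (ticks) and SD (lines). The 9 at the top were higher in the mutant, led by *PER1* with 4.52 in WT and 7.99 in the mutant, and the 6 at the bottom lower. WT and mutant samples do not overlap in any of the 15. They were chosen by a test on these same samples, so the separation follows in part from the choice and is given as a description.

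Of the named members only *AT5G16980* and *AT2G07777* passed as lower in total RNA. *AT5G16980*, a zinc-binding dehydrogenase, had 6.22, 5.93 and 6.39 in WT and 5.01, 5.39 and 5.67 in the mutant, a log2 change of -0.82 ± 0.17 (SE, FDR = 0.0364, limma). Leaving out replicates 1, 2 and 3 gave it an FDR of 0.186, 0.128 and 0.0537, and the lowest of the alternatives tried was 0.0225. Its TL was nonetheless higher in the mutant, at -0.03 ± 0.27 against -0.67 ± 0.46 in WT (SD, n = 4 each), since the NP signal (mean log2 change -0.79) was further below that of WT than the PL signal (-0.15).

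*AT2G07777* belongs to a group of members with mitochondrial sequence. Its total RNA signal was 6.05, 6.42 and 6.42 in WT and 5.74, 5.77 and 5.80 in the mutant, a log2 change of -0.53 ± 0.11 (SE, FDR = 0.0392, limma, and 0.0796, 0.206 and 0.184 without replicates 1, 2 and 3, with 0.0288 as the lowest of the alternatives tried). Mitochondrial mRNAs are translated by mitochondrial ribosomes and carry no stable poly(A) tail. A large piece of the mitochondrial genome is also present in the nuclear chromosome 2, and probe sets cannot always tell the copies apart. Of 33 measured probe sets of the mitochondrial genome 4 were members, namely *nad5*, a subunit of complex I, *ccb206*, for cytochrome c maturation, 257322_at and *AT2G07777* (12.1%, where 0.897% of all probe sets were members). The median TL change of the 33 was 0.23, with 26 above 0 (58.9% of all probe sets were). This list was chosen with earlier results of these data known, so its shares are descriptions. In total RNA 6 of the 33 were lower (FDR below 0.05, limma) and 0 higher, where 1.45% and 2.44% of all probe sets were called.

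*nad5* had TL values of -0.66, -1.24, -1.20 and -0.64 in WT and -0.14, -0.03, -0.42 and -0.14 in the mutant, without overlap. *ccb206* had -1.82, -0.93, -0.93 and -0.95 in WT and -0.31, -0.16, -0.84 and -0.49 in the mutant. In the member for *nad5* and in *ccb206*, PL was nearly the same in the 2 genotypes (mean log2 changes 0.01 and 0.06) and NP had -0.74 and -0.65. Of 33 probe sets for chromosome 2 loci between *AT2G07667* and *AT2G07815*, where the copy lies, 3 were members (*AT2G07678*, *AT2G07739* and *AT2G07777*, which also counts in the mitochondrial group). The 3 are 9.09% of the 33, where 0.897% of all probe sets were members. The median TL change of these 33 was 0.21, with 26 above 0 (58.9% of all probe sets were). This list, too, was chosen with earlier results of these data known. *AT2G07678*, *AT2G07739* and the member for *nad5* are read by probe sets that can cross-hybridise.

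Only 3 probe sets on the list of translation factors and 1 on that of seed regulators were measured under their names. None were members, which at a share of 0.897% over all probe sets says little, and *PAB2* and *PAB4* had been removed by the rule. *EIF4A-2*, an RNA helicase of cap-dependent initiation, had a TL change of 0.11, the cap-binding protein *NCBP* -0.30 and the mutated *PAB8* -0.27. *EEL*, a transcription factor of the abscisic acid response in seeds, had a TL change of 0.32, above 0 in 4 of 4 replicates but below the threshold.

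The members were dim on the arrays, in the fractions more than in total RNA. The median WT signal in total RNA was 5.35 (all probe sets 6.14), and 126 members (61.8%) lay below the median of all. When all probe sets were split by that signal into 4 bins of equal size, from dim to bright, the bins held 43, 83, 45 and 33 members, which is 0.756%, 1.46%, 0.791% and 0.58% of each. The bin with 83 members was also the one in which the TL change of all probe sets varied most between replicates, with a median SD of 0.39, against 0.31, 0.37 and 0.30 in the bins with 43, 45 and 33. On the fraction arrays 139 members (68.1%) lay below the median of all probe sets.

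Across the members the WT signals in total RNA and in the fractions had a Pearson r of 0.61, against 0.83 over all probe sets. Some members were bright in total RNA and dim in the fractions. Of 17 members with a WT total RNA signal above 9, 7 had a mean WT signal below 5 over PL and NP arrays (41.2%), where 164 of 2689 probe sets did so over the whole array (6.1%). These limits were chosen after the values were seen, as was that for the opposite case, the kinds of array were normalized apart, and no test was made. The 7 are 251814_at (13.63 in total RNA and 4.18 in the fractions), *AT5G08050* (10.97 and 4.55), 248748_at (10.78 and 3.94), 245198_at (10.40 and 3.99), *AT2G46600* (9.98 and 3.44), *MTP11* (9.77 and 4.10) and *AT1G80530* (9.20 and 3.21). None of them passed the total RNA test. For these 7, ribosome loading was read near the lower end of the range of the fraction arrays. In the opposite case, 3 members had a fraction signal at least 2 log2 units above that in total RNA (1.47%, all probe sets 1.94%), the farthest being 250543_at with 10.64 in the fractions and 5.56 in total RNA.

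**Figure D5:**
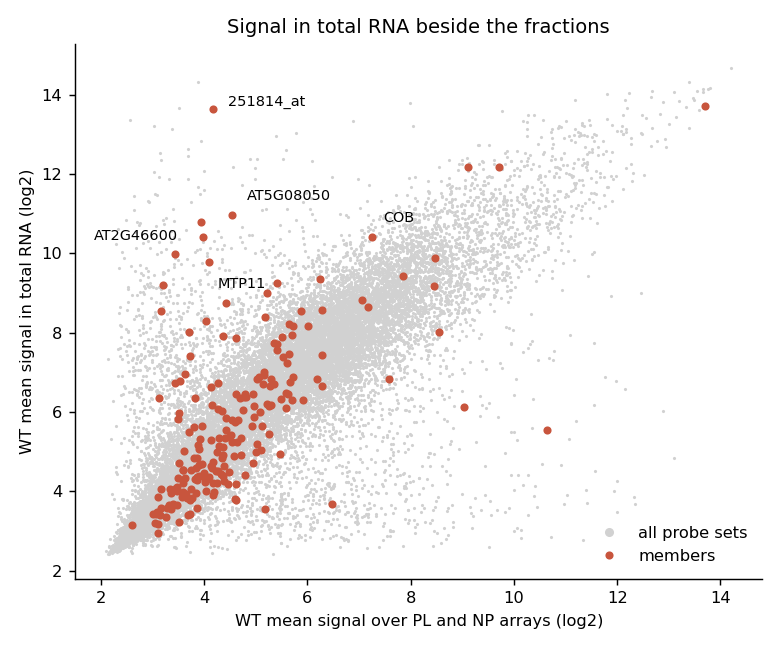
Mean WT signal (log2) over PL and NP arrays (x) and in total RNA (y) of all probe sets (grey) and of the members (red). Most members follow the grey cloud at its dim end, and 251814_at, *AT5G08050*, *AT2G46600* and *MTP11* lie above it, with 9.77 to 13.63 in total RNA and 3.44 to 4.55 in the fractions.

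Other bright members were also bright in the fractions. *COB* encodes COBRA, an anchored cell surface protein needed for oriented cellulose deposition, and its mRNA had a TL above 0 in both genotypes. Its TL was 0.78, 0.81, 0.37 and 0.65 in WT and 1.26, 1.47, 1.26 and 1.00 in the mutant, which do not overlap, with a mean change of 0.59 ± 0.24 (SD, n = 4). Its mean WT signal in the fractions was 7.25. Total RNA was 10.31, 10.53 and 10.42 in WT and 10.16, 10.04 and 9.94 in the mutant, a log2 change of -0.37 ± 0.10 (SE) that missed the threshold (FDR = 0.0733, limma). It passed with arrays centred on their medians (0.0476), with a trend in eBayes (0.0435) and over the brighter probe sets alone (0.0448), and the highest FDR of the alternatives tried was 0.313, without replicate 3. *AT5G06360*, at 8.44 in the fractions, had a TL change of 0.35, 0.61, 0.56 and 0.83, and *AT3G12010*, at 7.18, one of 0.53, 1.31, 0.40 and 0.16.

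Gene names were known for 125 of the 204 members, 121 from the array annotation and 4 from the study's tables. The tables list genes for their change on these arrays. In total RNA 3 of those 4 members passed as higher, against 4 of the 121. Of 123 named members with a gene type, 7 were pseudogenes (5.69%, all probe sets 7.11%). By locus code 30 of those on nuclear chromosomes lay on chromosome 2 (24.4%, all probe sets 16.4%) and 11 on chromosome 4 (8.94%, all 14.6%). 15 members were read by probe sets that can cross-hybridise (7.35%, all probe sets 4.66%).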

How the data were processed

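RNA of aerial parts had been hybridized to 22 ATH1 arrays. The values used are log2 signals deposited by the authors after RMA normalization with the affy package, whose versions are not given in the sources used. A table of translation states repeats the PL and NP arrays in 16 columns, which were left out, and numbers replicate 4 as 5. TL, its changes and counts were computed in Python 3.11.15 with numpy 2.4.6 and pandas 2.3.3, and figures were drawn with matplotlib 3.10.9. For total RNA, 3 samples per genotype entered lmFit and eBayes of limma 3.58.1 (R 4.3.3) without a replicate term, and p-values were adjusted over all 22746 probe sets by Benjamini-Hochberg (the false discovery rate, FDR). On simulated data this test recovered 79 of 100 changes of log2 1 and all 100 of log2 2, with 4 false calls. The simulated noise was independent between probe sets, without effects shared within an array or replicate. These figures therefore need not hold for the real arrays. Precision is limited by the number of arrays.

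Per the labels, genotypes were grown alongside each other and replicates at other times, which pairs samples of the same number. Across probe sets, their deviations from the mean of the group had an r of 0.0660, 0.0931, 0.0525 and 0.135 for TL, and of -0.164, -0.0572 and 0.211 for total RNA. Names come from the array annotation, otherwise from the study's tables, with symbols from TAIR10.1. Described by rule are, among members with 1 gene name, the 12 largest TL changes, the 8 brightest, up to 8 called per direction in total RNA, members on gene lists and those nearest the threshold. Members and lists were chosen with earlier results of these data known, and further members were named after their values were seen. Sequences were not analysed here.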

Additional observations from a re-analysis of the deposited data

Results flagged for a closer look

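The TL of each member named by the rule was examined for a sample far from the other 3 of its genotype, by Dixon's test at the 95% level. Of 68 groups 6 had such a sample, and about 1 in 20 does by chance. In mutant replicate 2 there were 3 of them: *AT2G07678* had a TL of 1.32 (the others -0.09 to 0.07), *AT5G01300* 0.51 (the others -0.08 to 0.02) and the probe set 249286_at 0.63 (the others -0.12 to -0.08). *AT5G06360* had 0.55 in mutant replicate 3 (the others 0.93 to 0.96). In WT, *ccb206* had -1.82 in replicate 1 (the others -0.95 to -0.93) and *AT3G03890* -0.67 in replicate 2 (the others -1.20 to -1.12).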

How the results depend on the processing

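The number of members depended on scaling and on single replicates. It was 204 with the deposited values and with the authors' TL table, 95 with arrays centred on their medians (all 95 among the 204), 105 with each fraction quantile-normalized again (102 among the 204), 65 among brighter fraction signals and 4 at a mean change of 1 or more. Without single replicates it was 212 to 631. With centring, the other direction held 261 probe sets in place of 115. Median PL, NP and TL values of the members moved by less than the spread between replicates. The median total RNA change was -0.05, and -0.11 with centring. Without single replicates 3 to 6 members were higher in total RNA, where 0.211% to 1.36% of all probe sets were called. With the 2-fold criterion 3 to 6 were higher (0.145% to 0.655% of all probe sets), and 0 were lower in each case. Among the 77 brighter members 3 were higher with the 2-fold criterion, where 0.51% of the brighter probe sets were called. With the replicate number as a block 13 members were higher and 6 lower, where 2.5% and 1.3% of all probe sets were called. These stand in place of 9 and 6, with 5 calls gained and 1 lost. *AT5G66780* gained a call (FDR = 0.0985 without the block and 0.0479 with it, limma), and the other 5 have no gene name here. Under the remaining settings with all replicates, the members described by rule kept their calls in total RNA except *COB* and 249286_at, which were lower at an FDR below 0.05 in limma under 3 settings and 1. The causes were not tested. Signals near the lower end of the arrays limit the dim members.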
